A study of Mus musculus with 23 samples.

Results

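The genes described here are the subunits of the constitutive proteasome and the factors that share their names. They were chosen by name alone: protein-coding genes whose symbol is Psma, Psmb, Psmc, Psmd or Psme followed by a digit, leaving out the interferon-inducible catalytic genes Psmb8, Psmb9 and Psmb10. This gave 43 genes of 54354 in the deposited count table. The table holds bulk poly(A) RNA-seq of mouse colon tumours that grew from organoids placed in the colon. All the organoids were AKP-tdT, as the labels name them without spelling out alleles, and carried a Basp1-eGFP-DTR reporter, which couples Basp1 expression to a green fluorophore and to a receptor for diphtheria toxin. Tumours were dissociated and cells were sorted into a GFP-negative group (12 libraries) and a GFP-positive group (11 libraries). Both groups thus share organoid genotype, tissue and handling and were told apart by the reporter's fluorescence at the sort. The AKP-tdT genotype is that of the organoids, and the libraries also held fibroblast and macrophage markers, given below. The labels give no age, strain, sex or treatment. The series title holds the letters HFD, which no label explains. The labels also do not say whether libraries of a group came from separate animals, so each p-value reflects how much these libraries scatter, which may be technical.

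The proteasome is the main protease of the cytosol and nucleus and degrades proteins that carry ubiquitin chains. Its core particle, the 20S, is a barrel of stacked rings: outer rings of alpha subunits form the gate and inner rings of beta subunits hold the active sites, which belong to Psmb5 (chymotrypsin-like), Psmb6 (caspase-like) and Psmb7 (trypsin-like). The regulatory particle, the 19S, caps the barrel with an ATPase base that unfolds substrates and a lid that removes ubiquitin. Subunit genes are known to be induced together by the transcription factor NFE2L1, which acts through antioxidant response elements when proteasome activity falls, and by NF-Y at CCAAT boxes.

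By role, the 43 genes were 7 alpha ring genes, 7 beta ring genes, 9 genes of the base, 8 of the lid, 3 chaperones that assemble the base, 5 activators that can replace the 19S cap, 2 tissue-restricted ring genes and 2 genes that share only the name stem.

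Because both factors are defined by short DNA motifs, the 300-base windows around RefSeq transcript starts (250 bases before the start and 50 after, GRCm38.p6) were searched on both strands for TGACNNNGC, the core of the antioxidant response element, and for CCAAT. Windows were held for 36 of the 43 genes, 40 windows in all. TGACNNNGC stood in 6 of 40 windows (15.0%) and in 12.4% of all 32851 mouse windows of the same length. CCAAT stood in 15 of 40 windows (37.5%), against 37.4% of all windows. Neither share is far from that of all genes. The stretches shown are those of the genes whose TGACNNNGC match lay wholly before the start, and of Psmd10, which had the largest fold change; capitals mark TGACNNNGC (its reverse complement in Psmc6 and Psmd12) and, in Psmd10, the reverse complement of CCAAT. Each runs 5′ to 3′ on the gene's strand.
Psmb5, chr14:54617996-54618095, minus strand: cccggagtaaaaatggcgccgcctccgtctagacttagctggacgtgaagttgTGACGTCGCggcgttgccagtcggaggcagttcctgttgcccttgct
Psmb6, chr11:70525257-70525356, plus strand: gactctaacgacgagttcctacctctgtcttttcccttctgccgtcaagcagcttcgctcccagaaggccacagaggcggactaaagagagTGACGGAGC
Psmd9, chr5:123228090-123228189, plus strand: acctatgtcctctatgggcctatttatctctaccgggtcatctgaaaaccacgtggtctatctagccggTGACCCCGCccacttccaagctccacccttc
Psmc6, chr14:45329574-45329673, plus strand: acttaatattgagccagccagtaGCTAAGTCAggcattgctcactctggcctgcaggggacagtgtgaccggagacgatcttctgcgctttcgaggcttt
Psmd12, chr11:107479278-107479377, plus strand: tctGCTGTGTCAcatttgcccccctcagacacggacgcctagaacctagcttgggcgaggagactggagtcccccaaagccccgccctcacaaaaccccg
Psmd10, chrX:140956712-140956811, minus strand: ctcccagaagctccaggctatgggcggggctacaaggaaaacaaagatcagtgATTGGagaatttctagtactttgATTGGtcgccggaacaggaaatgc

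In Psmb5 the match lay 47 to 39 bases before the start, in Psmb6 at 9 to 1 and in Psmd9 at 31 to 23, whereas in Psmc6 (227 to 219) and Psmd12 (247 to 239) it lay near the far end of the window. The remaining match, in Psme4, spanned the start. A match is a run of letters and says nothing of occupancy in these cells.

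Total counts ran from 25458 to 2304316 (median 144334) in GFP-negative libraries and from 37125 to 4238877 (median 1418140) in GFP-positive ones, and 4 libraries held under 100000 counts (GFP-negative 4, 5 and 12, GFP-positive 4). Library numbers in the labels fall into 2 runs, called library set 1 (6 GFP-negative, 5 GFP-positive) and library set 2 (6 and 6); the labels do not say what separates them. All 14 intestinal epithelial markers were detected in both groups, with a summed level of 3038 to 8160 counts per 1000000 counts of the library (CPM) in GFP-negative and 3883 to 10715 CPM in GFP-positive libraries. Basp1 itself ranged from 0 to 83.8 CPM in GFP-negative and from 13.3 to 107.7 CPM in GFP-positive libraries, and the groups overlapped. Summed fibroblast markers ranged from 148 to 8995 CPM in GFP-negative libraries and from 0 to 2135 CPM in GFP-positive ones. Summed macrophage markers ranged from 427 to 7061 CPM in GFP-negative libraries. They ranged from 147 to 32432 CPM in GFP-positive libraries, with the maximum in GFP-positive 3. The part of these other cells in the proteasome values was not tested, and in sorted bulk RNA fewer cells of a type and less RNA per cell cannot be told apart.

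The proteasome genes were broadly detected: 29 of 43 had counts in all 23 libraries and 40 in at least 19. Levels were compared between genes only per kilobase of merged exons, rescaled to a common total per library. On that scale Psmb5 was highest, with a mean level of 590 ± 169 (SD, n = 23), followed by the ring gene Psmb2 at 553 ± 190, Psmb6 at 438 ± 87.5 and the alpha ring gene Psma7 at 435 ± 74.3. These 4 levels lay above those of at least 98.6% of the 23679 genes detected. Of the 42 pairs of neighbours in the order, 39 differed by less than 1 SD of their difference over the 19 libraries with at least 100000 counts, Psmb5 and Psmb2, Psmb2 and Psmb6, and Psmb6 and Psma7 among them; pairs further apart were not compared. With the longest transcript in place of merged exons, Psma7 took place 1 and Psmb5 place 5.

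As a class, core genes had higher levels per length than regulatory particle genes, with overlap. The 14 core genes had a median level of 259 (93.0 to 590) and the 17 regulatory particle genes a median of 110 (6.79 to 316). Among the classes of the core and regulatory particle, the alpha ring was the most even, from 177 in Psma1 to 435 in Psma7, a 2.47-fold span. The beta ring spanned 6.35-fold, since Psmb4 (107 ± 63.2) and Psmb7 (93.0 ± 43.9) lay well below the other ring genes. In the base, Psmc1 (316 ± 70.4), an ATPase, stood at the top and Psmd1 (25.8 ± 11), the large scaffold, at the bottom. In the lid, Psmd7 (220 ± 52.7) was highest and Psmd3 (6.79 ± 3.67) lowest, a 32.4-fold span between subunits of 1 complex.

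**Figure D1:**
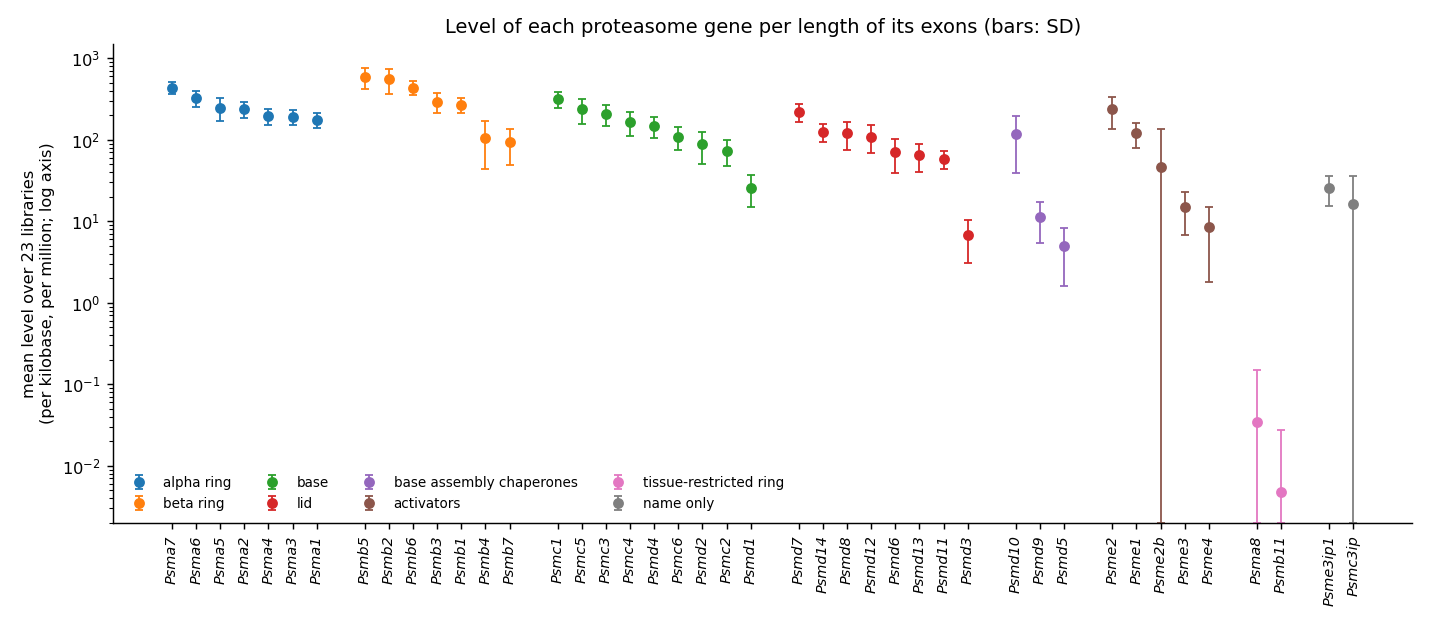
Mean level of each proteasome gene per kilobase of merged exons (rescaled to a common total per library), on a log axis, over 23 libraries; points are means, bars SD (cut at the axis floor), colours the roles. Alpha ring genes lie within 2.47-fold of each other, whereas lid genes span 32.4-fold because of Psmd3; the tissue-restricted genes Psma8 and Psmb11 are the lowest.

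The accessory genes were spread over the whole order. The base chaperones Psmd9 and Psmd5 had levels of 11.4 ± 6.03 and 4.92 ± 3.33, against 118 ± 78.2 for the chaperone Psmd10 (gankyrin). Among the activators, Psme2 (237 ± 102) and Psme1 (120 ± 41.1), which together form the ring known as PA28, stood above the nuclear activator Psme3 (14.9 ± 8.10) and Psme4 (8.41 ± 6.62). Psma8, known as a testis ring gene, had 3 counts in all, in 2 libraries, and Psmb11, known as the thymus catalytic gene, had 1 count.

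The summed transcripts of the complex were close in the sorted groups over all libraries. All 43 genes together made up 8147 ± 1276 CPM in GFP-negative (n = 12) and 8365 ± 514 CPM in GFP-positive libraries (n = 11), a difference smaller than either SD. The order was opposite in the library sets, at 8624 ± 1502 and 8033 ± 385 CPM in set 1 and 7670 ± 881 and 8642 ± 455 CPM in set 2. On CPM the SD was wider in the GFP-negative group, also without the 4 libraries under 100000 counts (1243 against 459 CPM). With library sizes scaled by edgeR's TMM factors the SDs over all libraries were alike, at 1064 in GFP-negative and 1078 in GFP-positive. Counting error grew at low depth: in GFP-negative 5, 143 core counts gave 5617 CPM with an exact 95% binomial interval of 4736 to 6614, whereas 18513 core counts in GFP-positive 1 gave 4367 CPM (4305 to 4431). Such intervals cover counting error only.

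Core and regulatory particle differed in how they compared. Summed core counts had a lowest, median and highest value of 3184, 4837 and 5694 CPM in GFP-negative libraries and 4111, 4367 and 5268 CPM in GFP-positive ones. The means were 4744 ± 834 and 4547 ± 375 CPM, and the GFP-positive range lay inside the GFP-negative one. Summed regulatory particle counts had a lowest, median and highest value of 1767, 2767 and 3663 CPM in GFP-negative libraries and 2640, 3169 and 3550 CPM in GFP-positive ones. The means were 2806 ± 472 and 3142 ± 243 CPM, and these ranges overlapped too. The lowest value was that of GFP-negative 4, a library under 100000 counts in which mitochondrial rRNA took 32.1% of counts.

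Within each library set the sums of the particles were described, without a test. In set 2, regulatory particle counts were 2564 to 2874 CPM in 6 GFP-negative and 3083 to 3288 CPM in 6 GFP-positive libraries. These point values did not overlap. With library sizes scaled by edgeR's TMM factors the ranges were 2608 to 3157 and 3175 to 3788, still without overlap. Counting error crossed the gap in CPM. The value of GFP-negative 12, 2874 CPM, rested on 200 counts, with an exact binomial interval of 2490 to 3301 CPM. How often sums of other genes separate the groups in set 2 was not tested. In set 1 the regulatory particle ranges overlapped, at 1767 to 3663 and 2640 to 3550 CPM. Core counts of the groups overlapped in both sets. In set 1 the 5 GFP-positive libraries lay between 4285 and 4367 CPM and the 6 GFP-negative libraries between 3967 and 5694 CPM (median 5555). In set 2 the GFP-negative and GFP-positive ranges were 3184 to 5289 and 4111 to 5268 CPM. The narrow GFP-positive range of set 1 was not kept with TMM scaling, which gave 3797 to 5190 in GFP-positive and 4591 to 5732 in GFP-negative libraries. Fibroblast markers moved with the set 2 contrast, at 1265 to 8995 CPM in GFP-negative and 169 to 972 CPM in GFP-positive libraries, as did macrophage markers, at 2530 to 6670 and 147 to 861 CPM. Of 12 intestinal epithelial markers tested in set 2, 12 were higher in GFP-positive cells, with a median log2 fold change of 0.36. In set 1, 6 of 12 were higher, with a median of -0.01, and none was called in either set.

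**Figure D2:**
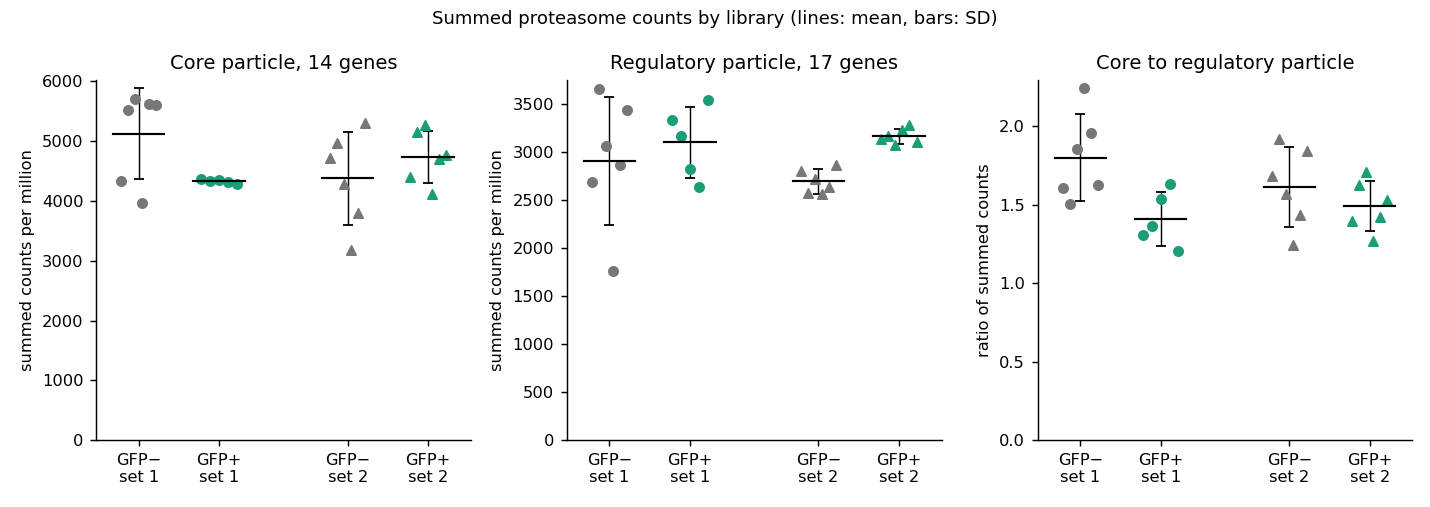
Summed CPM of the 14 core genes and the 17 regulatory particle genes, and the ratio of the 2 sums, by library set and sorted group; each point is a library, lines are means and bars SD. In set 2 the GFP-positive regulatory particle sums (3083 to 3288) all lie above the GFP-negative ones (2564 to 2874), whereas core sums overlap. Counting error is not drawn, and for the regulatory particle sum of GFP-negative 12 (200 counts) its interval, 2490 to 3301, crosses that gap.

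The ratio of core to regulatory particle counts, which does not depend on library size, was 1.71 ± 0.27 in GFP-negative and 1.46 ± 0.16 in GFP-positive libraries. Its lowest, median and highest values were 1.24, 1.66 and 2.25 in the GFP-negative group and 1.21, 1.43 and 1.71 in the GFP-positive group, so the groups overlapped. Of the 10 identifiers that the library names give to libraries of both groups, the ratio was lower in GFP-positive cells in 8, with a mean log2 difference of -0.18 ± 0.18 (SD). Of these identifiers, 1 was put together here, joining GFP-negative 4 and 5, each named by a single number, to GFP-positive 4, whose name holds both numbers. Another joins GFP-negative 8 of set 2 to GFP-positive 2 of set 1 and GFP-positive 7 of set 2. Without the 4 libraries under 100000 counts the ratio was 1.61 ± 0.21 (n = 9) and 1.44 ± 0.16 (n = 10). As a score over chosen genes it has no p-value.

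Gene by gene, no proteasome gene passed the test. Fold changes are of GFP-positive over GFP-negative, fitted to all genes with edgeR's quasi-likelihood test and Benjamini-Hochberg adjustment at a threshold of 0.05. Of 39 proteasome genes above the filter on low counts, 0 were called, where 0.0151% of all genes (1 of 6621) were. At an unadjusted p under 0.05 there were 2 of 39, Psmc3 and Psmd10, beside 328 of 6621 genes, a like share. DESeq2 called 0 proteasome genes and 61 of 9961 genes. The median log2 fold change of the 39 was 0.07, the same as the median of all genes tested (0.07), with 27 above 0 and 12 below. With DESeq2's size factors in the same fit the split was 19 and 20, while the median of all genes fell to 0.01. The 95% intervals of 37 of the 39 lay within 2-fold in either direction, the exceptions being Psmd9 and Psmd10, and those of 19 lay within 1.5-fold.

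**Figure D3:**
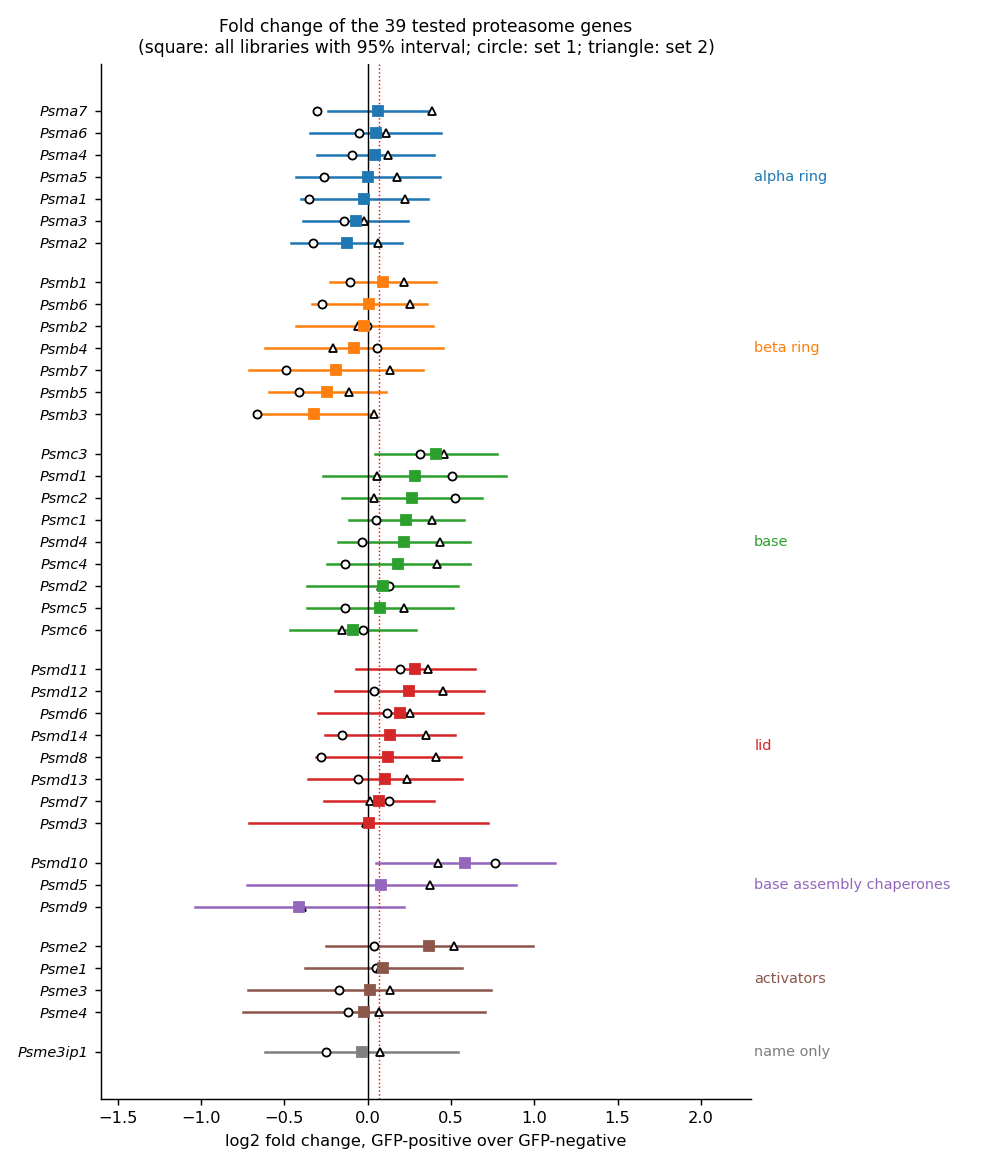
Log2 fold change of the 39 tested proteasome genes, GFP-positive over GFP-negative, grouped by role. Squares and bars are the fit to all libraries with its 95% interval, circles library set 1 and triangles library set 2; the dotted line is the median of 0.07. Base and lid genes lie mostly right of 0 and ring genes on both sides, and in most ring genes the circle lies left of the triangle.

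By particle, 16 of the 17 regulatory particle genes had a fold change above 0 (median 0.18), against 6 of 14 core genes (median -0.02) and 58.5% of all genes tested. With DESeq2's size factors these counts were 14 of 17 and 1 of 14. The 6 genes with a TGACNNNGC match did not stand together: Psmd12 was at 0.25, Psmb6 at 0.01, Psme4 at -0.02, Psmc6 at -0.09, Psmb5 at -0.24 and Psmd9 at -0.41 on the log2 scale.

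Within library set 1 no gene was called (0% of 5256) and none of 37 proteasome genes; the median was -0.09 over these and 0.05 over all genes. Within library set 2, 1.28% of 6952 genes were called, 86 of the 89 lower in GFP-positive cells, and none of the 39 proteasome genes, whose median was 0.13 beside 0.07 over all genes. The core genes had a median of -0.27 in set 1, with 13 of 14 below 0, and of 0.12 in set 2, with 10 of 14 above 0 (12 below 0 and 8 above with DESeq2's size factors). Of all genes tested, 54.1% lay above 0 in set 1 and 56.1% in set 2 (58.8% and 50.9% with those size factors). Regulatory particle genes had medians of 0.04 in set 1 and 0.25 in set 2. A test of the difference between the sets called 0 of 6621 genes (0%) and 0 of the 39, with Psma7 and Psmb3 at an unadjusted p under 0.05 and 424 such genes in all. The median of that difference was 0.26 over the proteasome genes and -0.01 over all genes, or 0.11 and -0.16 with DESeq2's size factors.

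In the alpha ring, 4 of 7 genes lay above 0 (0 of 7 with DESeq2's size factors), between -0.13 in Psma2 and 0.06 in Psma7. Psma7, a gate-ring subunit and the highest of its class, had 413, 698 and 883 CPM (lowest, median, highest) in GFP-negative and 512, 690 and 789 CPM in GFP-positive libraries. The groups overlapped throughout and the log2 fold change was 0.06 ± 0.15 (SE). Its means in set 1 were 785 ± 69.8 CPM in GFP-negative (n = 6) and 646 ± 97.1 CPM in GFP-positive cells (n = 5). In set 2 they were 560 ± 114 and 729 ± 51.8 CPM (n = 6 each). The order of the groups was thus opposite in the sets. The difference between the sets was 0.65 ± 0.28 on the log2 scale, with an unadjusted p of 0.0251 and an adjusted p of 0.713 in edgeR's quasi-likelihood test.

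In the beta ring, 2 of 7 genes lay above 0 (1 of 7 with those size factors), with a median of -0.08. Psmb3, a structural ring subunit, had 240, 358 and 746 CPM (lowest, median, highest) in GFP-negative and 244, 300 and 323 CPM in GFP-positive libraries. GFP-positive libraries clustered tightly, and 7 of the 12 GFP-negative libraries lay above the highest of them. Its log2 fold change was -0.32 ± 0.17 (SE), with an unadjusted p of 0.0609 and an adjusted p of 0.996 (edgeR, Benjamini-Hochberg), and it was lower in GFP-positive cells in 8 of 10 identifiers. In set 1 it was -0.66 ± 0.24 (adjusted p = 0.894) and in set 2 0.04 ± 0.21. The difference between the sets had an unadjusted p of 0.0390 and an adjusted p of 0.762. Without libraries under 100000 counts Psmb3 was at -0.17 ± 0.16.

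The catalytic genes showed no shift beyond their error. Psmb5 had 207, 275 and 432 CPM (lowest, median, highest) in GFP-negative and 144, 247 and 369 CPM in GFP-positive libraries, with a log2 fold change of -0.24 ± 0.17 and a 95% interval from -0.60 to 0.11. Psmb6 had 224, 425 and 628 CPM against 249, 418 and 554 CPM, with a log2 fold change of 0.01 ± 0.17. Psmb7 had 19.6, 148 and 312 CPM against 80.8, 160 and 192 CPM, with a log2 fold change of -0.19 ± 0.26. In all 3 the groups overlapped, and Psmb5 was higher in GFP-positive cells in 5 of 10 identifiers. Exons of Psmb7 overlap those of Nek6 on the other strand, and whether counting used strand is not given in the sources used here.

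In the base, 8 of 9 genes lay above 0 (7 of 9 with DESeq2's size factors), with a median of 0.22. Psmc3, an ATPase of the unfolding ring, had 98.0, 247 and 316 CPM (lowest, median, highest) in GFP-negative and 262, 300 and 415 CPM in GFP-positive libraries. The GFP-positive median lay near the top of the GFP-negative range, and the groups overlapped. The log2 fold change of Psmc3 was 0.41 ± 0.18, with an unadjusted p of 0.0305 and an adjusted p of 0.992 in edgeR's test, and it was higher in GFP-positive cells in 8 of 10 identifiers. It was 0.31 ± 0.26 in set 1 and 0.46 ± 0.26 in set 2. Exons of Psmc3 share 215 bases with Slc39a13 on the other strand, so its counts carry the same uncertainty as those of Psmb7.

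Psmc1, among the ATPases whose tails open the gate, had 115, 302 and 396 CPM in GFP-negative and 279, 329 and 418 CPM in GFP-positive libraries, at a log2 fold change of 0.23 ± 0.17. The ubiquitin receptor Psmd4 was at 0.22 ± 0.19 and Psmc6 was the only base gene below 0, at -0.09 ± 0.19. In the lid all 8 genes lay above 0, from 0.01 in Psmd3 to 0.28 in Psmd11, a subunit that helps to hold core and cap together; 7 of 8 did with DESeq2's size factors. Psmd7, partner of the deubiquitinase, had 86.6, 248 and 324 CPM against 218, 248 and 339 CPM and a log2 fold change of 0.07 ± 0.16. The deubiquitinase itself, Psmd14, was at 0.13 ± 0.19. None of these fold changes exceeded 2 standard errors apart from that of Psmc3.

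**Figure D4:**
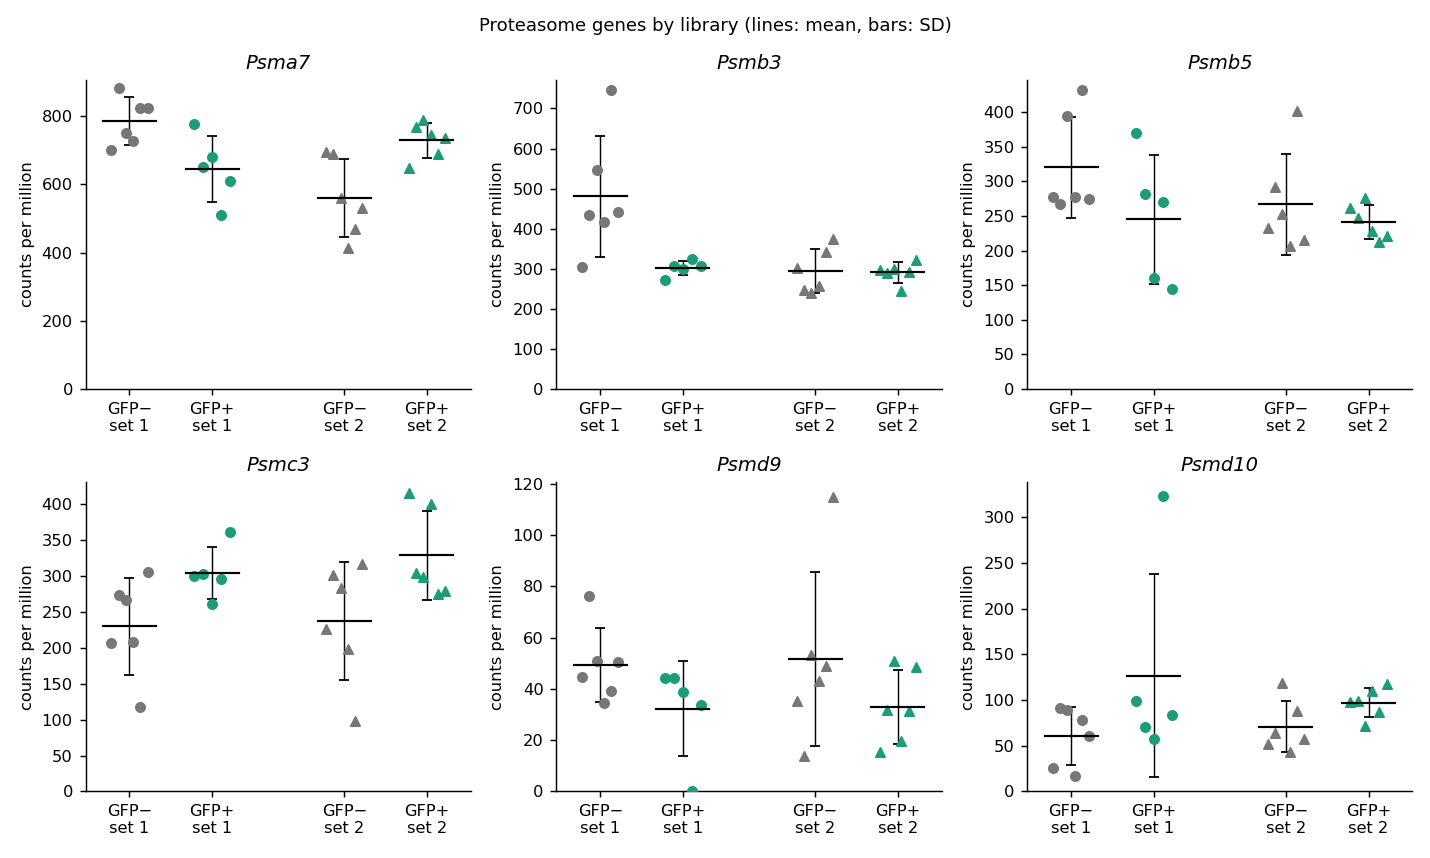
CPM of Psma7, Psmb3, Psmb5, Psmc3, Psmd9 and Psmd10 by library set and sorted group; each point is a library, lines are means and bars SD. Psma7 is lower in GFP-positive libraries of set 1 (646 against 785) and higher in those of set 2 (729 against 560), and the Psmd10 point at 323 is GFP-positive 4, which had 12 counts of the gene.

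The chaperones of the base held both the largest and the smallest fold change. Psmd10, which docks on an ATPase during assembly and is also known as a liver oncoprotein, had 17.3, 62.3 and 118 CPM (lowest, median, highest) in GFP-negative and 57.1, 98.4 and 323 CPM in GFP-positive libraries. Its log2 fold change was 0.59 ± 0.27 (unadjusted p = 0.0336, adjusted p = 0.992 in edgeR's test), and it was higher in GFP-positive cells in 6 of 10 identifiers. The maximum rested on 12 counts in GFP-positive 4, and without that library the log2 fold change was 0.46 ± 0.24. Psmd9 had 13.9, 46.9 and 115 CPM in GFP-negative and 0, 33.8 and 50.7 CPM in GFP-positive libraries, the 0 again in GFP-positive 4. Its log2 fold change was -0.41 ± 0.31, with an adjusted p of 0.997 (edgeR), and it was lower in GFP-positive cells in 9 of 10 identifiers. Exons of Psmd9 share 1849 bases with the long noncoding gene Gm26745 on the other strand.

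Among the activators, Psme2 and its near copy Psme2b could not be read separately. Psme2b had counts in 9 of 23 libraries, 221 in all, and in GFP-negative 4 and GFP-negative 5 it held all 5 and all 4 counts of the pair while Psme2 was at 0. In GFP-positive 4 it held 5 of 7. In the other libraries it held at most 11.01% of the pair. Psme2 alone had 0, 218 and 263 CPM (lowest, median, highest) in GFP-negative and 53.9, 223 and 372 CPM in GFP-positive libraries, and a log2 fold change of 0.37 ± 0.30. The pair summed had 86.6, 230 and 283 CPM against 186, 223 and 372 CPM. The fold change of the sum was 0.31 ± 0.19 (adjusted p = 0.997, edgeR); summing was chosen after the values were seen.

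In set 2 Psme2 was at 0.52 ± 0.25 (unadjusted p = 0.0464, adjusted p = 0.714, edgeR) and the sum at 0.48 ± 0.25, and in set 1 they were at 0.04 ± 0.53 and -0.02 ± 0.28. Psme1, partner of Psme2 in the same ring, was at 0.09 ± 0.23 over all libraries. Psme3 and Psme4 were at 0.01 ± 0.36 and -0.02 ± 0.36, the widest errors but for Psmd5 (0.40). Of the genes that share only the name stem, Psme3ip1, which binds the Psme3 ring, was at -0.04 ± 0.29. Psmc3ip, a meiotic recombination factor, was not tested and had 67 counts in GFP-negative and 214 in GFP-positive libraries.

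The inducible genes Psmb8, Psmb9 and Psmb10 replace the 3 catalytic subunits in the immunoproteasome. Their share of the counts of all 6 genes had a lowest, median and highest value of 1.15%, 9.47% and 22.8% in GFP-negative and 0%, 6.35% and 21.4% in GFP-positive libraries. GFP-negative libraries of set 1 held 1.15% to 8.55% and those of set 2 10.4% to 22.8%, without overlap of the point values. In GFP-negative 2, 3, 4 and 5 the share rested on 3, 2, 1 and 1 inducible counts. Exact 95% binomial intervals crossed the gap, at 0.08% to 17.2% in GFP-negative 5 and 4.59% to 19.4% in GFP-negative 11. GFP-positive libraries of the sets overlapped, at 0% to 21.4% and 4.56% to 13.98%. The order of the group means was opposite in the sets: 3.34% in GFP-negative and 6.98% in GFP-positive libraries of set 1, and 14.8% and 9.20% in set 2. The GFP-positive mean of set 1 leans on GFP-positive 3 (21.4%), as the other GFP-positive libraries of that set held 0% to 5.47%. The set 1 medians were 2.49% in GFP-negative and 4.72% in GFP-positive libraries. The 0 in GFP-positive 4 came from 26 counts and allows a share of up to 11.5% as 3 counts of 26, or 13.2% as the upper end of the exact 95% binomial interval. Psmb10, the only 1 of the 3 tested over all libraries, had a log2 fold change of 0.11 ± 0.36. In set 1 it was at 0.98 ± 0.57. In set 2 all 3 were tested and all lay below 0 (median -0.91), and none was called. The library with the most macrophage transcripts, GFP-positive 3, had the highest share of its group, and without it GFP-positive shares were at most 13.98%. Among GFP-negative libraries the most macrophage transcripts (7061 CPM) were in GFP-negative 1, with a share of 8.55%. The highest GFP-negative share, 22.8%, was in GFP-negative 7, at 6670 CPM of macrophage markers. The part of macrophage RNA was not tested.

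**Figure D5:**
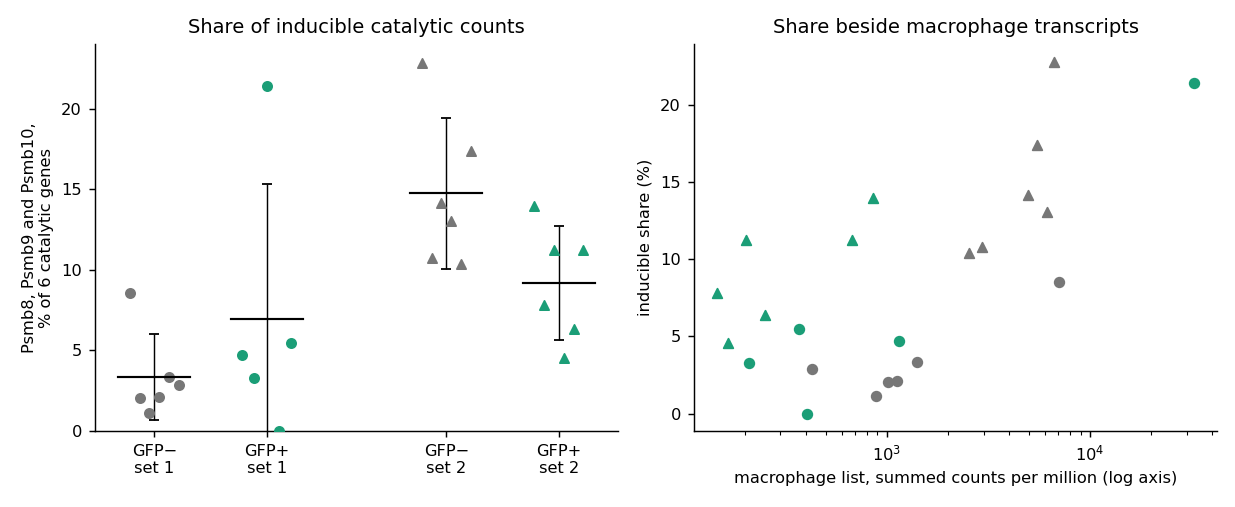
Left, the share of Psmb8, Psmb9 and Psmb10 in the counts of the 6 catalytic genes by library set and group (lines: means, bars: SD). Right, the same share against the summed macrophage markers (log axis; grey GFP-negative, green GFP-positive, circles set 1, triangles set 2); GFP-positive 3 lies at 32432 CPM and 21.4%, and most other GFP-positive libraries lie below 1000 CPM.

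Genes that work with the proteasome gave no call in the same fits, in any of 8 lists, over all libraries or within either set. Of the chaperones that build the core, 3 were tested and the smallest p was that of Psmg3, at a log2 fold change of -0.82 ± 0.37 (adjusted p = 0.992, edgeR). Factors bound to the particle lay above 0 in 10 of 11, with a median of 0.28, beside 58.5% and a median of 0.07 over all genes. In set 1 they did in 6 of 9 (median 0.14), beside 54.1% of all genes. In set 2 they did in 11 of 11 (median 0.26), beside 56.1% of all genes. Over all libraries they led with the ubiquitin ligase Ube3c at 0.85 ± 0.41 (adjusted p = 0.992, edgeR). Of the 4 ubiquitin genes 3 lay above 0, and polyubiquitin Ubb was at 0.36 ± 0.14 (adjusted p = 0.949, edgeR).

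In the remaining lists the median log2 fold change was -0.09 for 2 ubiquitin-activating enzymes, -0.10 for 5 shuttle factors that carry chains to the particle, 0.13 for 11 genes of the p97 segregase, and -0.01 for 8 genes that activate proteasome genes or process their activators. Nfe2l1, the inducer named above, was at 0.22 ± 0.25 over all libraries. The last of these lists had 6 of 7 tested genes above 0 in set 1 (median 0.31), beside 54.1% of all genes. In set 2 it had 0 of 7 above 0 (median -0.14), beside 56.1% of all genes. Over all libraries, the smallest p of the first 3 of these lists belonged to Uba1 (-0.21 ± 0.26), Ubqln1 (0.43 ± 0.32) and Ubxn6 (0.41 ± 0.35). None of these values exceeded 2 standard errors.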

How the data were processed

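The deposited table gives estimated counts per gene for 23 libraries; the authors quantified reads with Salmon 1.3.0 against mm10, per the submitters' processing notes. For the options, annotation, strand use and rounding the sources give nothing, and every value was a whole number, used as deposited. RNA was poly(A)-selected into a directional library, per the labels' protocols, which speak of RNA from organoids where the series' design speaks of sorted tumour cells. Groups came from the sample titles and columns from the library names. Positions and exon lengths came from GENCODE M21 (94.7% of gene IDs found), promoter windows from RefSeq GRCm38.p6.

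Genes were filtered with filterByExpr, scaled by TMM and tested in edgeR 4.0.16 (R 4.3.3, limma 3.58.1) with robust quasi-likelihood fits over all genes, GFP-positive against GFP-negative, in all libraries, in each library set and for the interaction of group and set. P-values were Benjamini-Hochberg adjusted over all genes tested. CPM scales each library to a total of 1000000. Per-length levels divide by merged exon length. Fits were tested on simulated data. Alternatives were DESeq2 1.42.0, its size factors, no filter, a stricter filter, a block for the identifier in the library names, the set as covariate, and leaving out each library or those under 100000 counts.

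The members and gene lists were chosen with earlier results of these data known. Values by library are given for the catalytic genes, any gene called, the 3 largest and 3 smallest fold changes, and the highest gene per length of each class; of each pathway list, the gene of smallest p. No 2 libraries agreed within sampling noise. Rows of 5 proteasome pseudogenes hold at most 2 counts each.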

Additional observations from a re-analysis of the deposited data

Results flagged for a closer look

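In groups of 5 or 6 libraries (each sorted group within a library set), 64 sets of values were examined for 1 library far from the rest, and 5 stood out; chance alone gives about 1 in 20. Of these, 3 concerned GFP-positive 4, a library of 37125 counts: its summed activators were 269 CPM where the other 4 libraries lay between 381 and 407, its Psmd10 was 323 CPM where the others lay between 57.1 and 98.8, and its Psmd9 was 0 CPM where the others lay between 33.8 and 44.4. The inducible share of catalytic counts was 8.55% in GFP-negative 1, against 1.15% to 3.33% in the other 5 GFP-negative libraries of set 1. Among those, GFP-negative 2, 3, 4 and 5 held 1 to 3 inducible counts each. The inducible share was 21.4% in GFP-positive 3, while the remaining GFP-positive libraries of set 1 held 0% to 5.47%.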

How the results depend on the processing

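Proteasome calls stayed at 0 in all 74 alternative fits, the smallest adjusted p of any member being 0.279. The number of genes called overall did move. Over all libraries it was 61 with DESeq2 and 0 to 16 with 1 library left out (16 without GFP-positive replicate 3; 3 without GFP-positive replicate 1; 0 without each of GFP-negative replicates 1, 2 and 5 to 12). In set 1 it was 11 with DESeq2 and 0 to 6 with 1 library left out (6 without GFP-negative replicate 6; 1 without GFP-negative replicate 1 or GFP-positive replicate 3); in set 2 it was 288 with DESeq2, 375 without the filter and 65 to 118 with 1 library left out; the interaction gave 1 without the filter. Leaving out 1 library kept the median over members between 0.03 and 0.12, summed CPM differences (log2) between 0.02 and 0.08 for all members, -0.09 and -0.02 for the core and 0.12 and 0.22 for the regulatory particle, the particle ratio between -0.26 and -0.19, and the constitutive to inducible ratio between -0.50 and -0.07.

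With the identifier as a replicate block, 3 genes were called over all libraries (1 without the block), 140 in set 2 (89 without), and 100 without GFP-positive replicate 3, an alternative added after the data were seen; no proteasome gene was among them. Deviations of libraries sharing an identifier correlated between -0.34 and 0.59, above 0.1 in 6 of 10 identifiers, and 3 of 11 GFP-negative libraries matched their own identifier best. The labels do not say what the identifier marks, and not every identifier passed 0.1, so the block was kept as an alternative.

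Of 363 alternative fold changes of 11 named genes, 350 kept their sign and 0 passed the threshold. With DESeq2's size factors Psma7 was at -0.0040 and Psmb6 at -0.055; Psmb6 was at -0.022 in DESeq2 and at -0.024 with the stricter filter, and lay between -0.056 and 0.064 with 1 library left out. Psmb5 ranked first per merged exons and 5 by longest transcript. The cause of these shifts was not tested.

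Library depth limits the low genes: Psmd3, Psmd5, Psme3 and Psme4 had 420 to 1000 counts over all libraries.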
